A study of Mus musculus with 10 samples.

Results

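Dual specificity MAPK phosphatases switch off mitogen-activated protein kinases (MAPKs) by removing phosphate from both the threonine and the tyrosine of the activation loop. Accessible chromatin was described around 6 of their genes, Dusp1, Dusp2, Dusp4, Dusp5, Dusp6 and Dusp10. A region was taken as a member when it overlapped the gene body or lay within 50 kb of the transcription start, and this rule found 121 of the 94823 regions in the table. Dusp1 had 10 regions, Dusp2 had 28, Dusp4 had 9, Dusp5 had 30, Dusp6 had 17 and Dusp10 had 27. For 95 of the 121 regions the nearest protein-coding start was that of the phosphatase gene. The other regions lay nearer to a neighbour, as in the Dusp2 window, which holds the starts of Astl and Adra2b, and the Dusp10 window, whose start region also covers the start of 1700056E22Rik.

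The cells were invariant natural killer T (iNKT) cells sorted from the thymus of BALB/c mice and of age-matched SKG mice on the BALB/c background. SKG mice carry a hypomorphic Zap70 allele in all cells, so the weak T cell receptor signal acts throughout development and cannot be told apart here from a signal acting in the mature subset. iNKT1 cells were sorted as CD27+ CD122+ and iNKT2 cells as CD27+ CD122-, and no treatment was given. ATAC-seq, in which a transposase inserts adapters into open DNA, gave 10 libraries in 4 groups, with 2 libraries of each genotype for iNKT1 and 3 of each genotype for iNKT2. Nothing in the labels says how many animals a library came from, so p-values measure the spread between libraries, which may be technical. Levels are given as CPM, insertions scaled to a common library size by the library total in regions times its TMM factor.

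Several MAPK phosphatase genes are induced by the pathways that their proteins restrain, so the family is known as a negative feedback arm of antigen receptor signalling. Dusp6 is a cytoplasmic and Dusp5 a nuclear phosphatase, both specific for ERK. Dusp1, Dusp2 and Dusp4 are inducible nuclear phosphatases, and Dusp10 acts on JNK and p38. In thymocytes ERK activity follows the strength of the T cell receptor signal, which Zap70 transmits.

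A stretch of sequence from each gene is shown first, because these are the regions of smallest p for the genotype comparison in iNKT2 at each locus, and the letters let a reader see which signal-responsive motifs lie there. Each run is the central 300 bases, read 5′ to 3′ on the plus strand from the GRCm38 (mm10) reference, which is C57BL/6J and not BALB/c. Capitals mark matches, on either strand, to NFAT (TGGAAA), EGR (GTGGGNG), AP-1 (TGANTCA), CRE (TGACGTCA), ETS (CCGGAAG), Runx (TGTGGT), TCF (TTCAAAG), NF-kB (GGGANTTCC) or the NFAT and AP-1 half-composite, whose first letters overlap the NFAT motif.
Dusp6, chr10:99287184-99287483: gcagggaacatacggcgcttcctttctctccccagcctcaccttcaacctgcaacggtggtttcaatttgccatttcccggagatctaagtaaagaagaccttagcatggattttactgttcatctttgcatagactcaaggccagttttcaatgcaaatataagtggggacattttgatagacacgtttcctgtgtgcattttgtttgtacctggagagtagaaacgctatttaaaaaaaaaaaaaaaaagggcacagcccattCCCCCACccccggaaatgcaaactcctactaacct
Dusp5, chr19:53491663-53491962: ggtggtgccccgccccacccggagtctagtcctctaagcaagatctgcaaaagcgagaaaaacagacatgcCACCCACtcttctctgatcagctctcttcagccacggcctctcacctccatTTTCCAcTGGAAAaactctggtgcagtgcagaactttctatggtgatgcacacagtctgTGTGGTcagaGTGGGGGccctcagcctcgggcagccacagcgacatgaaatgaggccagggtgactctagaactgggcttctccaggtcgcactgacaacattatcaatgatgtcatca
Dusp1, chr17:26503099-26503398: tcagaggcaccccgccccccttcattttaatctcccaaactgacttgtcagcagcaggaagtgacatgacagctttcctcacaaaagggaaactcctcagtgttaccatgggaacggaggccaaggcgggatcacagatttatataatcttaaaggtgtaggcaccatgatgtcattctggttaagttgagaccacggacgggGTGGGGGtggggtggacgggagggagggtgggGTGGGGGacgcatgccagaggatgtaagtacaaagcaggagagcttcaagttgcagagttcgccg
Dusp2, chr2:127300855-127301154: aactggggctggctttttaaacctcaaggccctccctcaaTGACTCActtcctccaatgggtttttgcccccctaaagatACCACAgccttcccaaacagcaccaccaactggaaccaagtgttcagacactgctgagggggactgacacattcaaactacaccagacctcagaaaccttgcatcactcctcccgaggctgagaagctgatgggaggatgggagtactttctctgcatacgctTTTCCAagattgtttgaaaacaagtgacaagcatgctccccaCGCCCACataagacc
Dusp4, chr8:34808078-34808377: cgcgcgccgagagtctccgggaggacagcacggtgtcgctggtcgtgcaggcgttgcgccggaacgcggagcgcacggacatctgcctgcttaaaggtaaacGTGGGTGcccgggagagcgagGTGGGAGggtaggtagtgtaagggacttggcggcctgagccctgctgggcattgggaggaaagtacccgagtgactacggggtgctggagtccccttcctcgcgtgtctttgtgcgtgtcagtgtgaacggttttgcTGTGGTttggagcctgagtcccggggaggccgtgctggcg
Dusp10, chr1:184066781-184067080: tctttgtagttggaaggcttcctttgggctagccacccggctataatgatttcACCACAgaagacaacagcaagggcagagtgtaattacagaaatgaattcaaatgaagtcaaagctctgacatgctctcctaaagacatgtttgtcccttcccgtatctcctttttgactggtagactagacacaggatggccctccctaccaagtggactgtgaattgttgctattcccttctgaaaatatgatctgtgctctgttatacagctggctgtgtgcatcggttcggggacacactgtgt

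The Dusp6 run, from an intergenic region that was lower in SKG, held 1 match, to EGR at base 266, counted from 1 at the left. The Dusp5 run, from another intergenic region that was lower in SKG, held 5 matches, with NFAT at bases 123 and 130, EGR at 72 and 192, and Runx at 182. The Dusp2 run, also lower in SKG, held AP-1 at 41, Runx at 81, NFAT at 244 and EGR at 286. The 3 runs that were higher in SKG held EGR at 204 and 236 (Dusp1), EGR at 103 and 124 with Runx at 261 (Dusp4), and Runx at 54 (Dusp10). None of these 3 runs held NFAT or AP-1, and neither did the Dusp6 run. The wider set was all member regions past the adjusted p threshold for genotype in iNKT2, given further on. In their central bases, NFAT letters lay in 5 of 9 regions lower in SKG and in 2 of 10 higher. AP-1 letters lay in 3 of the 9 and in 0 of the 10. Whether these shares differ was not tested.

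Over all 121 member regions, the central 300 bases held the NFAT letters in 37 regions (30.6%), against 23.4% of all 94823 regions. The Dusp10 locus held 15 of these 37, and the Dusp4 locus held 0. EGR letters lay in 43 regions (35.5%, against 28.7% of all), AP-1 in 12 (9.92%, against 10.6%) and Runx in 36 (29.8%, against 30.3%). TCF letters lay in 9 (7.44%, against 7.74%), ETS in 3 (2.48%, against 4.94%), and NF-kB in 3 (2.48%, against 1.66%), all in the Dusp10 locus. CRE and the half-composite had 1 match each (0.826%), against 0.904% and 1.78% of all regions. These are matches of letters and not bound sites.

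The libraries held 14988590 to 36342635 insertions in regions. Start regions of the iNKT1 genes Tbx21, Ifng, Il2rb, Cxcr3 and Fasl summed to 266 to 302 CPM in iNKT1 libraries and 64.3 to 102 CPM in iNKT2 libraries, with no region for Klrb1c. The 6 iNKT2 genes summed to 194 to 236 CPM in iNKT1 and 198 to 260 CPM in iNKT2, and the starts of Zbtb16, Il4 and Gata3, which define the subset, were not higher in iNKT2. Those of Il6ra and Il17rb were higher in iNKT2 in both genotypes (log2 changes of 1.09 and 1.08 in BALB/c, adjusted p at most 7.0e-05), and that of Ccr7 passed 0.01 in SKG only (1.46, adjusted p = 2.3e-05, against 0.46, adjusted p = 0.049, in BALB/c). The sort took CD27+ cells for both subsets and left iNKT17 cells out, and markers of iNKT17 cells summed to 12.6 to 18.2 CPM in BALB/c iNKT2, 8.32 to 11.9 in SKG iNKT2 and at most 0.771 in iNKT1, over the 4 genes with a region. No region lay within 1 kb of the starts of 5 double-positive thymocyte or 4 B cell genes, and 2 of 5 myeloid genes summed to 4.3 to 7.94 CPM. The level per kb at percentile 5 of regions, a floor, was 1.41 to 1.92 CPM in BALB/c iNKT2, 0.612 to 1.01 in SKG iNKT2 and 0.214 to 0.364 in iNKT1. The iNKT17 genes did not move one way between the iNKT2 groups: Il17a was lower in SKG (log2 change -2.32, adjusted p = 2.1e-04), Ccr6 was higher (1.51, adjusted p = 0.0072), and Il23r (-0.23) and Blk (-0.87) did not pass 0.01. The iNKT17 sum and the floor differed between the iNKT2 groups and between the subsets, and their part in the results below was not tested beyond the alternative that subtracts the floor. In bulk samples, fewer cells with an open site and less opening per cell cannot be told apart.

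The first question was whether the loci as wholes differed with genotype. Insertions were summed over all regions of a locus, and 0 of 12 comparisons (6 loci in 2 subsets) passed an adjusted p of 0.01 in edgeR's quasi-likelihood test over 17994 protein-coding genes. In SKG iNKT2, 11.9% of all loci were higher and 6.1% lower at that threshold. In SKG iNKT1 the shares were 0.245% and 0.439%. DESeq2 passed 3 of the 12, and so did edgeR with a replicate block. The shares of all loci under these fits are not given. Both fits passed more single regions of the whole table between the iNKT2 genotypes (15208 with DESeq2 and 16752 with the block, against 13431). The block gave libraries of the same replicate number a shared term, over all 4 groups.

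Dusp10, the JNK and p38 phosphatase, came near the threshold in iNKT2 without passing it. Its BALB/c iNKT2 libraries held 348, 372 and 395 CPM and its SKG iNKT2 libraries 426, 457 and 459 CPM, so the groups did not overlap. The log2 change was 0.27 (SE 0.07, adjusted p = 0.012, and 0.0033 with the replicate block), where the median over all loci was 0.17. The change stood at percentile 71.4 of all loci, and the share of loci without overlap was not counted. Without SKG iNKT2 replicate 1 it was 0.30 (adjusted p = 0.0068). Over 17 alternatives the change ran from 0.01 to 0.38, with an adjusted p up to 0.92. In iNKT1 the BALB/c libraries held 384.5 and 409 CPM and the SKG libraries 402 and 428 CPM, which overlap.

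Dusp5 and Dusp4 had the same order of groups in iNKT2. Dusp5 held 197, 185 and 185.5 CPM in BALB/c iNKT2 and 259.5, 221 and 221 CPM in SKG iNKT2 (log2 change 0.31, SE 0.08, adjusted p = 0.013, and 0.0063 with the replicate block). Dusp4 held 99.1, 120.3 and 128 CPM in BALB/c iNKT2 and 132, 161 and 174 CPM in SKG iNKT2 (log2 change 0.43, SE 0.12, adjusted p = 0.019, and 0.0016 with the block). Neither pair of groups overlapped, and neither passed the threshold in the reported fit. Among all loci the changes of Dusp5 and Dusp4 stood at percentiles 78.2 and 93.4. Without SKG iNKT2 replicate 1, Dusp4 passed at 0.53 (adjusted p = 0.0036). Over 17 alternatives the change ran from 0.05 to 0.35 for Dusp5 (adjusted p up to 0.82). For Dusp4 it ran from 0.17 to 0.53 (adjusted p up to 0.23). In iNKT1 their log2 changes were -0.02 and -0.08.

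Dusp1 and Dusp2, like Dusp5 and Dusp6, had their highest group mean in BALB/c iNKT1. Dusp1 held 342 and 401 CPM in BALB/c iNKT1, 234.5 and 256 in SKG iNKT1, 182, 142 and 151 in BALB/c iNKT2, and 273, 176 and 203 in SKG iNKT2. SKG was thus below BALB/c in both iNKT1 libraries, while the iNKT2 groups overlapped. The log2 changes were -0.60 in iNKT1 (SE 0.19, adjusted p = 0.19) and 0.46 in iNKT2 (SE 0.15, adjusted p = 0.038), and their difference was 1.06 (SE 0.24, adjusted p = 0.049), with 0.0778% of all loci past 0.01 upward and 0.433% downward in that test. Dusp2 held 695 and 597 CPM in BALB/c iNKT1, 487 and 492 in SKG iNKT1, 314, 207 and 209 in BALB/c iNKT2, and 282, 195 and 212 in SKG iNKT2. Its log2 changes were -0.40 in iNKT1 (adjusted p = 0.62) and -0.08 in iNKT2 (adjusted p = 0.72).

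Dusp6 had the smallest summed change in iNKT2. It held 354 and 352 CPM in BALB/c iNKT1, 325 and 334 in SKG iNKT1, 228, 283.5 and 275.5 in BALB/c iNKT2, and 207, 295 and 301 in SKG iNKT2. The log2 changes were 0.03 in iNKT2 (SE 0.13) and -0.10 in iNKT1 (SE 0.16), with overlapping groups in iNKT2. The sign in iNKT2 flipped when the scaling was changed (-0.11 with library totals and -0.23 with TMM factors from start regions). A sum near no change at this locus stood beside regions that moved in opposite directions, as given further on.

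**Figure D1:**
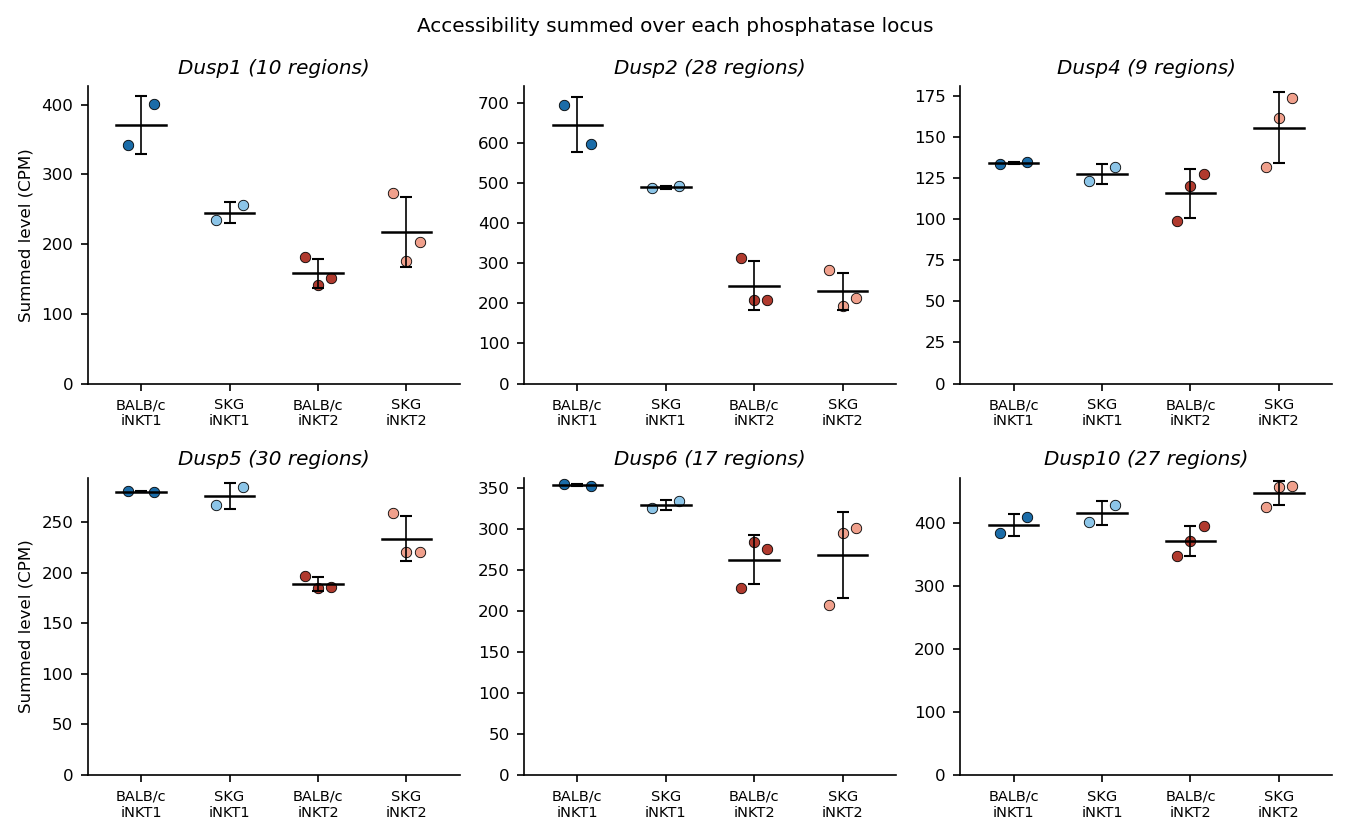
Summed level (CPM, y axis from 0) of all regions of each phosphatase locus in the 10 libraries, by group on the x axis. Points are libraries, bars the group mean and whiskers the SD. Dusp4, Dusp5 and Dusp10 show SKG iNKT2 points above all BALB/c iNKT2 points, and Dusp1, Dusp2 and Dusp6 show BALB/c iNKT1 above the other groups. How many of all loci show such a separation was not counted.

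The order of group means was described for each gene from these sums. For Dusp2 it ran BALB/c iNKT1 (646 CPM), SKG iNKT1 (489.8), BALB/c iNKT2 (243) and SKG iNKT2 (229.7), and only the last neighbours overlapped. For Dusp1 it ran BALB/c iNKT1 (371), SKG iNKT1 (245), SKG iNKT2 (218) and BALB/c iNKT2 (158), and only the first neighbours did not overlap. For Dusp5, BALB/c iNKT1 (280.4) and SKG iNKT1 (276) overlapped and stood above SKG iNKT2 (234), which stood above BALB/c iNKT2 (189). For Dusp6, BALB/c iNKT1 (353) stood above SKG iNKT1 (329), and both stood above the overlapping SKG iNKT2 (268) and BALB/c iNKT2 (262). For Dusp10 each neighbour overlapped the next, from SKG iNKT2 (447) over SKG iNKT1 (415) and BALB/c iNKT1 (397) to BALB/c iNKT2 (371). For Dusp4 it ran SKG iNKT2 (156), BALB/c iNKT1 (134), SKG iNKT1 (127) and BALB/c iNKT2 (116), with overlap of the first and of the last neighbours.

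The next question was which single regions of the loci differed between SKG and BALB/c. A region was called when edgeR's Benjamini-Hochberg adjusted p over all 94823 regions was under 0.01 and the change at least 4-fold, and counts without the fold limit are given beside. In iNKT2, 10 of the 121 regions were higher in SKG (8.26%, against 4.02% of all regions) and 9 were lower (7.44%, against 10.1% of all) at an adjusted p under 0.01. At 4-fold, 0 were higher (0.252% of all) and 3 were lower (2.48%, against 4.73% of all). The members' median log2 change was 0.12, where the median of all regions was 0.01 and that of regions over protein-coding starts 0.26. Other scalings moved the median of all regions to -0.12 (library totals) and -0.24 (TMM factors from start regions), and the split was then 5 higher and 9 lower, and 3 higher and 11 lower. The count of higher regions was 4 without BALB/c iNKT2 replicate 2, 4 without replicate 3 and 5 without SKG iNKT2 replicate 3, and the count of lower regions was 5 without BALB/c iNKT2 replicate 2.

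In iNKT1, 1 region was higher in SKG (0.826%, against 0.662% of all) and 8 were lower (6.61%, against 1.42% of all) at an adjusted p under 0.01. At 4-fold, 0 were higher (0.281% of all) and 3 were lower (2.48%, against 0.732% of all). With 2 libraries a group these counts were fragile. Without BALB/c iNKT1 replicate 1, SKG iNKT1 replicate 1 or SKG iNKT1 replicate 2, the count of 8 became 0, and without BALB/c iNKT1 replicate 2 it became 1. It was 3 when replicate 3 of BALB/c iNKT2 was left out, and 5 when replicate 2 of that group or replicates 2 or 3 of SKG iNKT2 were. The 3 regions past 4-fold became 0, 1, 0 and 0 without each iNKT1 library in turn and 5 without SKG iNKT2 replicate 1, and the 1 higher region became 0 without any of the iNKT1 libraries. A replicate block gave 6 regions past 4-fold, though the iNKT1 numbers did not pair the libraries.

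The changes were not spread evenly over the genes. Dusp6 held 6 of the 9 lower regions in iNKT2 (35.3% of its 17 regions) and 4 of the 8 in iNKT1 (23.5%). Dusp5 held 5 of the 10 higher regions in iNKT2 (16.7% of its 30) and 2 of the lower ones. Dusp10 held 2 higher regions, and Dusp1 and Dusp4 held 1 each. Dusp2, with 28 regions, held 1 lower region in iNKT2 and 2 in iNKT1, and Dusp1 held the other 2 of iNKT1. An adjusted p under 0.01 in both subsets, which share no library, was reached by 5 regions, all at Dusp6, of which 4 were lower and 1 higher in SKG in each subset. The fit shares its estimate of the spread over all libraries, so these tests are not independent. Among all regions 0.847% were lower and 0.19% higher in both.

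**Figure D2:**
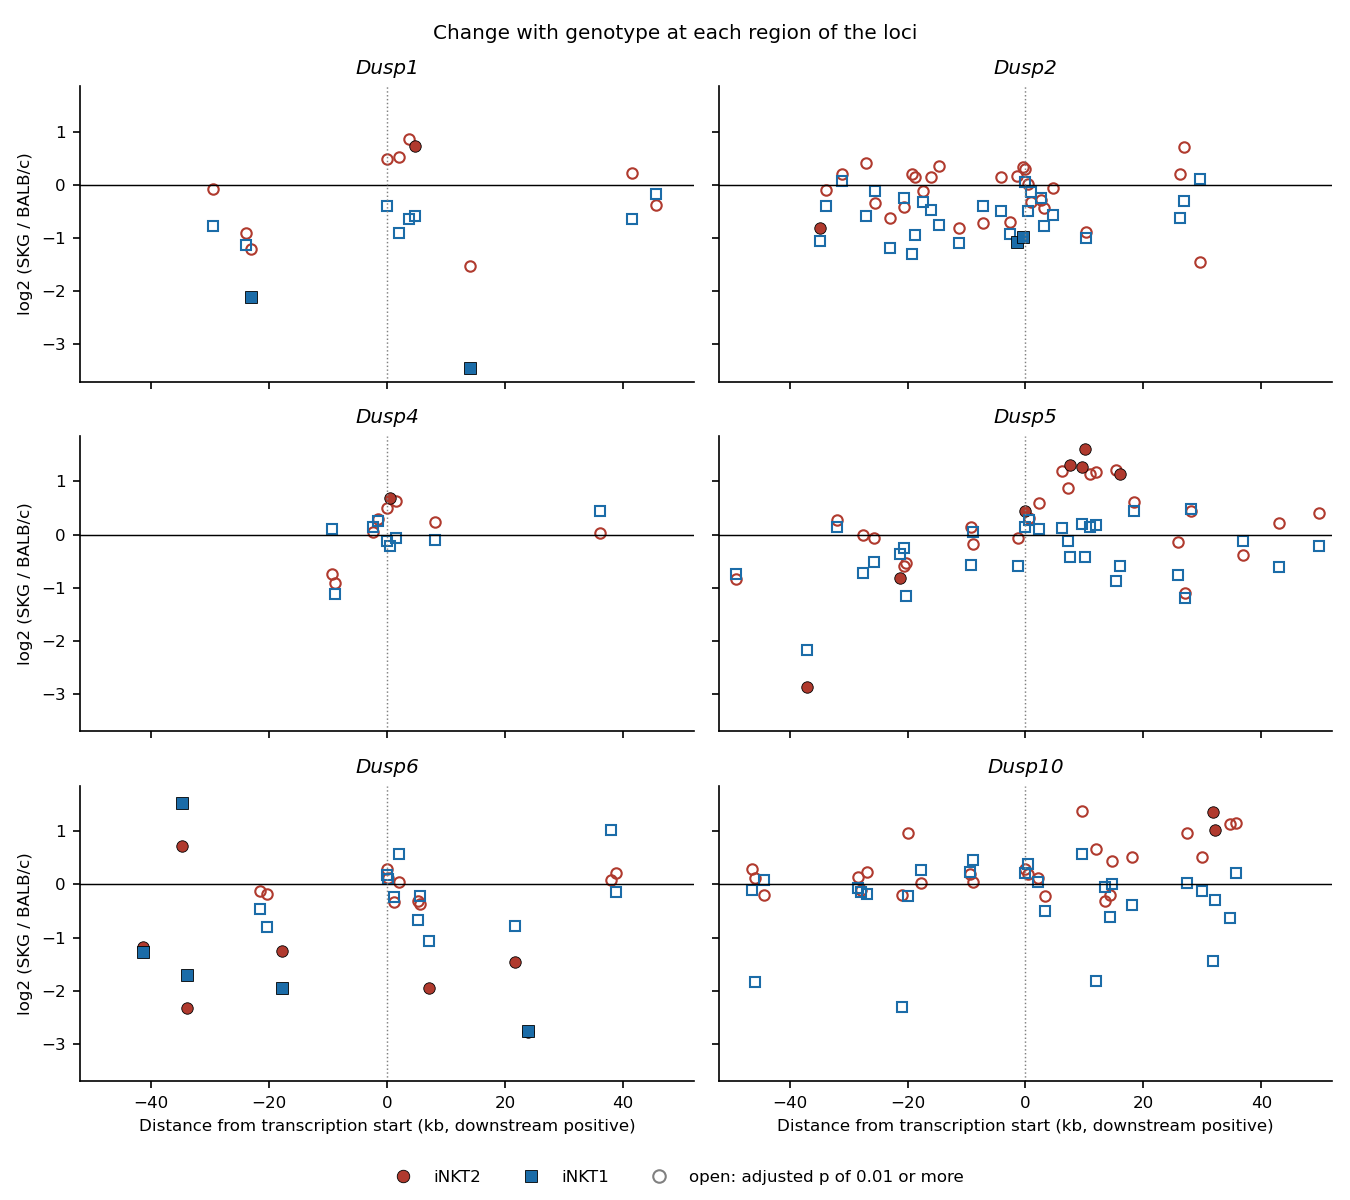
Log2 change of SKG over BALB/c (y axis) of each member region against the distance of the region from the transcription start in kb (x axis, downstream positive), 1 panel per gene, with circles for iNKT2, squares for iNKT1 and filled symbols for an adjusted p under 0.01. Dusp6 has filled symbols below 0 on both flanks, with those of the subsets superimposed near 24 kb, and Dusp5 has filled circles above 0 from its start to 16 kb downstream.

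Dusp6, the cytoplasmic ERK phosphatase, had all its genotype changes past the threshold on its flanks, in a split of body and flank that was not planned. Its 13 regions outside the gene body held all 7 changes of iNKT2. The 4 regions over the body had a median log2 change of 0.08 in iNKT2 and 0.14 in iNKT1, with 0 past the threshold in either. So few regions cannot show that the body was unchanged, and no such share over all genes was counted. The region over the start, chr10:99260900-99263378, which covers a UTR exon and was also the most accessible of the locus, held 96.6, 119 and 126 CPM in BALB/c iNKT2 and 104, 155 and 156 CPM in SKG iNKT2. These groups overlapped (log2 change 0.29, SE 0.15, adjusted p = 0.18). Without SKG iNKT2 replicate 1 the change was 0.46 (adjusted p = 0.0072).

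The largest genotype change at Dusp6 lay 23.8 kb downstream of the start, in the intergenic region chr10:99287057-99287610 whose central sequence with 1 EGR match is printed above. It held 4.71, 7.75 and 5.98 CPM in BALB/c iNKT2 and 0.773, 0.781 and 1.21 CPM in SKG iNKT2. In iNKT1 it held 3.76 and 2.73 CPM in BALB/c and 0.578 and 0.385 CPM in SKG. SKG was far below BALB/c in both subsets, with no overlap. The region was 6.89-fold lower in SKG iNKT2 (log2 change -2.78, SE 0.28, adjusted p = 5.6e-06) and 6.74-fold lower in SKG iNKT1 (log2 change -2.75, SE 0.41, adjusted p = 0.001). The iNKT2 call held under all 19 alternatives (adjusted p at most 7.3e-05), and the iNKT1 call under 14 of 19. It was lost in limma with voom, with and without quantile normalization, without BALB/c iNKT1 replicate 1 and without either SKG iNKT1 library (adjusted p up to 0.058).

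A second called region, chr10:99228952-99229290, lay 33.9 kb upstream and was also intergenic. It held 1.66, 1.91 and 1.90 CPM in BALB/c iNKT2 and 0.446, 0.367 and 0.202 CPM in SKG iNKT2, a 4.99-fold lower level (log2 change -2.32, SE 0.32, adjusted p = 1e-04). In iNKT1 it held 3.17 and 3.53 CPM in BALB/c and 0.899 and 1.16 CPM in SKG (log2 change -1.70, SE 0.35, adjusted p = 0.0096). Levels were lower in SKG without overlap in both subsets, from as few as 3 insertions in a SKG iNKT2 library. Per kb, SKG iNKT2 held 0.9985 CPM, within its floor of 0.612 to 1.01, and BALB/c iNKT2 held 5.37, above its floor of 1.41 to 1.92. The iNKT2 call held under all 19 alternatives, and the iNKT1 change passed under 7 of 19, with losses on leaving out any iNKT1 library, BALB/c iNKT2 replicates 2 or 3 or SKG iNKT2 replicate 2 (adjusted p up to 0.13), and under every scaling but DESeq2.

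Further Dusp6 regions passed an adjusted p of 0.01 without reaching 4-fold in iNKT2 and were chosen for description after their values were seen. The region 41.4 kb upstream, chr10:99221552-99221870, held 5.77, 5.42 and 5.57 CPM in BALB/c iNKT2 and 2.35, 2.20 and 2.90 CPM in SKG iNKT2 (log2 change -1.18, SE 0.20, adjusted p = 4.4e-04). Its iNKT1 levels were 4.002 and 4.67 CPM in BALB/c and 1.67 and 1.93 CPM in SKG (log2 change -1.26, SE 0.26, adjusted p = 0.0094). The groups stood apart in both subsets, by more than 2-fold. The region 17.9 kb upstream, chr10:99244698-99245336, held 8.19, 12.7 and 8.20 CPM in BALB/c iNKT2 and 3.18, 4.68 and 4.52 CPM in SKG iNKT2 (log2 change -1.25, SE 0.26, adjusted p = 0.0025). Its iNKT1 levels were 4.48 and 5.55 CPM in BALB/c and 0.707 and 1.86 CPM in SKG (log2 change -1.96, SE 0.38, adjusted p = 0.0068), again without overlap. The first iNKT2 change held under all 19 alternatives and the second under 18, with an adjusted p of 0.016 without BALB/c iNKT2 replicate 2. Both iNKT1 changes were lost without any iNKT1 library and without BALB/c iNKT2 replicate 3 or SKG iNKT2 replicate 3 (adjusted p up to 0.13), and the first also without BALB/c iNKT2 replicate 2 or SKG iNKT2 replicate 2. Both were also lost in limma with voom, with and without quantile normalization, with TMM factors from start regions and with the floor subtracted, and the first with library totals.

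Downstream of Dusp6, chr10:99284863-99285250, 21.6 kb from the start, held 5.08, 9.05 and 7.30 CPM in BALB/c iNKT2 and 2.14, 2.48 and 3.30 CPM in SKG iNKT2 (log2 change -1.46, SE 0.25, adjusted p = 4.9e-04). This change held under all 19 alternatives, while in iNKT1 the same region had 2.03 and 2.20 CPM in BALB/c and 1.41 and 1.03 CPM in SKG (adjusted p = 0.28). Nearer the gene, at 7.09 kb, chr10:99270325-99270624 held 0.690, 0.608 and 0.618 CPM in BALB/c iNKT2 and 0.0892, 0.230 and 0.202 CPM in SKG iNKT2, with 3 to 5 insertions in each SKG library (log2 change -1.96, SE 0.47, adjusted p = 0.0065). Per kb the region held 2.13 CPM in BALB/c iNKT2 and 0.579 in SKG iNKT2, near the floors of 1.41 to 1.92 and 0.612 to 1.01. At these counts and levels the call was weak, and it was lost under 12 of 18 alternatives (adjusted p up to 0.19 over all alternatives). It was lost with the floor subtracted, without either BALB/c iNKT1 library and without any of the iNKT2 libraries.

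A single Dusp6 region went the other way. The intergenic region chr10:99227785-99228528, 34.7 kb upstream and adjacent to the called region at 33.9 kb, held 11.3, 13.9 and 14.6 CPM in BALB/c iNKT2 and 16.9, 24.4 and 24.8 CPM in SKG iNKT2 (log2 change 0.73, SE 0.17, adjusted p = 0.0053). In iNKT1 it held 3.94 and 3.66 CPM in BALB/c and 10.4 and 11.6 CPM in SKG, a 2.88-fold higher level (log2 change 1.53, SE 0.23, adjusted p = 0.001). SKG thus stood above BALB/c in both subsets at this region and below it at the neighbouring one. The iNKT2 change passed under 7 of 19 alternatives and was lost without BALB/c iNKT1 replicate 1 and without any iNKT2 library but SKG replicate 1, as well as under most scalings (adjusted p of 0.042 with TMM factors from start regions). The iNKT1 change was lost without any iNKT1 library and with quantile normalization (adjusted p up to 0.02).

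Over the 17 Dusp6 regions, the changes in iNKT2 and iNKT1 had a Pearson r of 0.873, against 0.280 over all 94823 regions and 0.524 over the 121 members. The other loci gave 0.772 (Dusp1, 10 regions), 0.640 (Dusp5, 30), 0.414 (Dusp4, 9), 0.045 (Dusp2, 28) and 0.0257 (Dusp10, 27). These values describe regions of 1 locus that share libraries within a subset, and they carry no test.

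**Figure D3:**
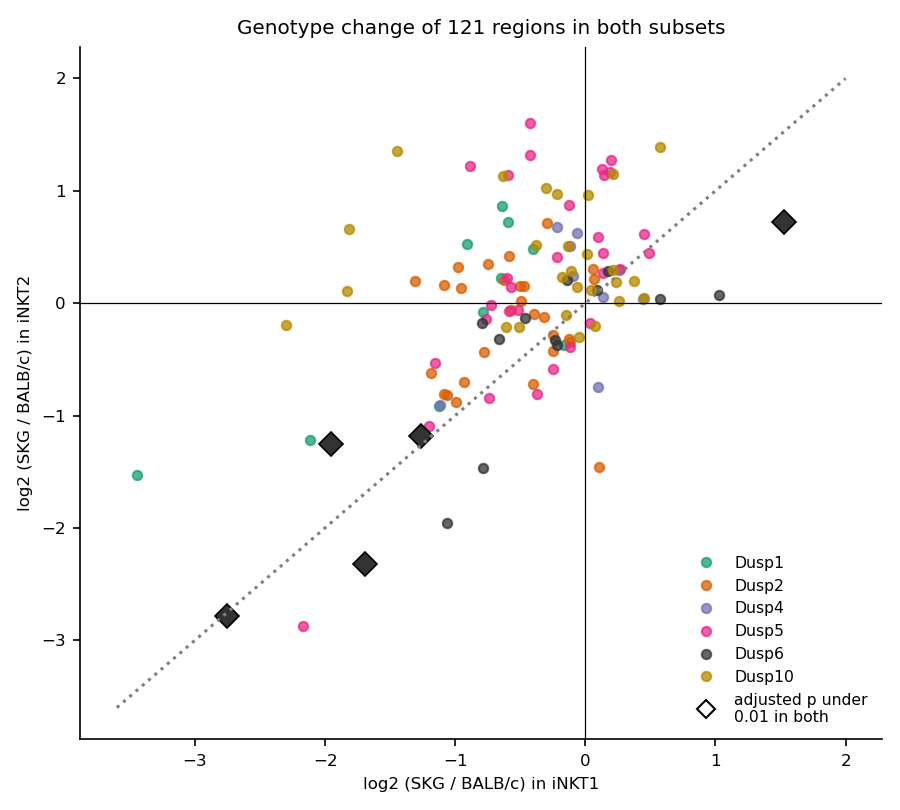
Log2 change of SKG over BALB/c in iNKT2 (y axis) against that in iNKT1 (x axis) for the member regions, coloured by gene, with the dotted line of equal change and diamonds for an adjusted p under 0.01 in both subsets. The 5 diamonds are Dusp6 regions, 4 at the lower left and 1 at the upper right.

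Dusp5, the nuclear ERK phosphatase, was higher in SKG iNKT2 at regions over the gene itself, by the same unplanned split. All 10 regions over its body had estimates above 0 in iNKT2, with a median log2 change of 1.16 and a range of 0.30 to 1.60, and 4 of them passed the threshold. The quartiles in iNKT2 were -0.52 and 0.31 over all regions, and 0.12 and 0.38 over protein-coding starts. In iNKT1 the 10 regions over the Dusp5 body had a median of 0.13 and 0 passed. The 20 regions outside the body had a median of -0.07 in iNKT2, with 1 higher and 2 lower. None of the higher regions reached 4-fold, so those of the intron were chosen for description after their values were seen.

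The start region chr19:53528840-53529574, which covers coding sequence and was the most accessible of the locus, held 56.9, 58.6 and 62.2 CPM in BALB/c iNKT2 and 84.1, 80.4 and 77.6 CPM in SKG iNKT2. The groups did not overlap, and the log2 change was 0.45 (SE 0.10, adjusted p = 0.0052), where the median of all start regions was 0.26. It passed under 4 of 19 alternatives and was lost on leaving out any library other than SKG iNKT2 replicate 1 (adjusted p 0.011 to 0.035 for those). With TMM factors from start regions it was 0.19 (adjusted p = 0.13). In iNKT1 the libraries held 88.8 and 89.3 CPM in BALB/c and 100.3 and 95.5 CPM in SKG (adjusted p = 0.67).

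Intronic regions of Dusp5 changed more. At 7.51 kb downstream of the start, chr19:53536615-53537158 held 6.24, 9.34 and 6.60 CPM in BALB/c iNKT2 and 19.0, 15.7 and 20.8 CPM in SKG iNKT2, a 2.49-fold higher level (log2 change 1.32, SE 0.18, adjusted p = 8.2e-05). At 10.2 kb, chr19:53539285-53539762 held 3.89, 3.25 and 2.68 CPM in BALB/c iNKT2 and 12.8, 9.001 and 7.96 CPM in SKG iNKT2, a 3.04-fold higher level (log2 change 1.60, SE 0.23, adjusted p = 1.5e-04). Neither pair of groups overlapped, and both changes held under all 19 alternatives (adjusted p at most 0.0023). Between them, at 9.60 kb, chr19:53538710-53539161 held 1.51, 1.32 and 1.73 CPM in BALB/c iNKT2 and 4.76, 3.08 and 2.90 CPM in SKG iNKT2 (log2 change 1.27, SE 0.24, adjusted p = 0.0013). That change held under 18 of 19, with an adjusted p of 0.014 without BALB/c iNKT2 replicate 2. Just past the gene, 16.1 kb from the start, chr19:53545170-53545542 held 2.26, 2.65 and 1.94 CPM in BALB/c iNKT2 and 4.61, 4.501 and 6.20 CPM in SKG iNKT2 (log2 change 1.14, SE 0.24, adjusted p = 0.0029). It passed under 16 of 19 alternatives and was lost with TMM factors from start regions and when replicate 3 of either iNKT2 group was left out (adjusted p up to 0.022).

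The called Dusp5 region lay far upstream and went the other way. The intergenic region chr19:53491543-53492083, 37.0 kb upstream and with the NFAT, EGR and Runx matches printed above, held 6.74, 3.36 and 6.555 CPM in BALB/c iNKT2 and 1.19, 0.413 and 0.472 CPM in SKG iNKT2. It was 7.31-fold lower in SKG (log2 change -2.87, SE 0.38, adjusted p = 6.5e-05), and the call held under all 19 alternatives. In iNKT1 it held 2.51 and 2.42 CPM in BALB/c and 0.771 and 0.321 CPM in SKG (log2 change -2.17, SE 0.55, adjusted p = 0.03, and 0.0052 with a replicate block), also without overlap. Without SKG iNKT2 replicate 1 that iNKT1 change passed the threshold. It missed the threshold under 6 of the 9 alternatives other than leaving out a library. The iNKT1 numbers did not pair the libraries, so the block has little basis there. A further intergenic region 21.2 kb upstream, chr19:53507452-53507893, held 9.35, 10.1 and 9.57 CPM in BALB/c iNKT2 and 5.74, 5.37 and 5.39 CPM in SKG iNKT2 (log2 change -0.81, SE 0.19, adjusted p = 0.0055). It was lost without BALB/c iNKT1 replicate 2, BALB/c iNKT2 replicates 2 or 3, or SKG iNKT2 replicates 2 or 3 (adjusted p up to 0.021).

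**Figure D4:**
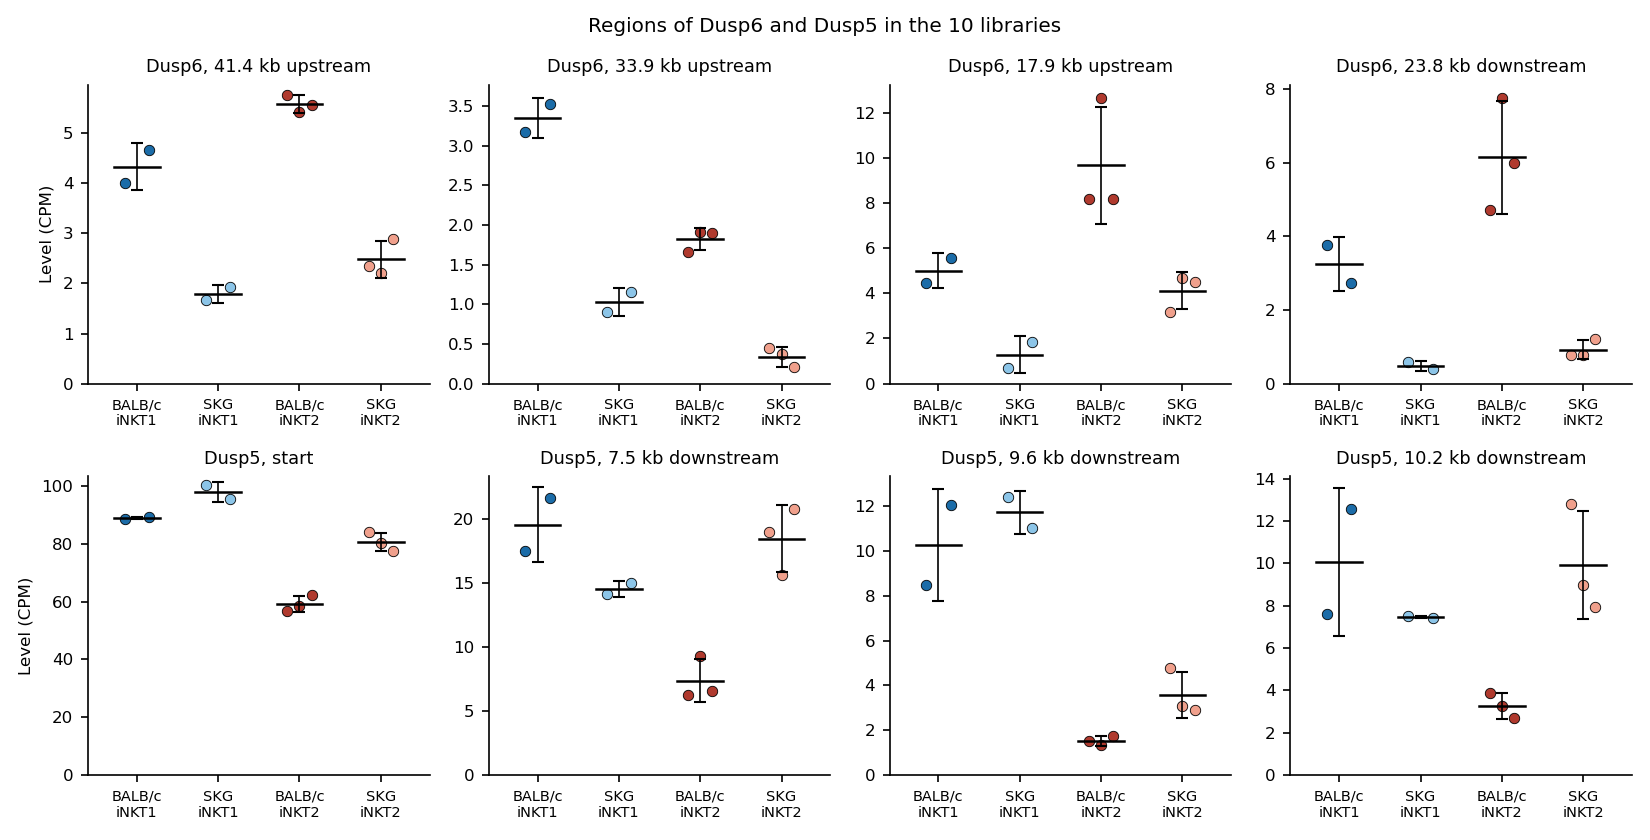
Level (CPM, y axis from 0) of 4 Dusp6 regions (top) and 4 Dusp5 regions (bottom) in the 10 libraries, by group on the x axis, with points for libraries, bars for the group mean and whiskers for the SD. The Dusp6 regions are lower in SKG than in BALB/c in both subsets, and the Dusp5 regions are higher in SKG iNKT2 than in BALB/c iNKT2.

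Dusp1, the immediate early nuclear phosphatase, was lower in SKG iNKT1 at flanking regions. The region chr17:26531674-26532195 lay 23.2 kb upstream, in an intron of a longer annotated Dusp1 transcript, and held 18.9 and 22.0 CPM in BALB/c iNKT1 and 4.95 and 4.49 CPM in SKG iNKT1, a 4.33-fold lower level (log2 change -2.11, SE 0.39, adjusted p = 0.0046). In iNKT2 it held 10.9, 6.80 and 6.14 CPM in BALB/c and 5.26, 1.52 and 3.24 CPM in SKG (log2 change -1.21, SE 0.32, adjusted p = 0.011). SKG stood below BALB/c in both subsets without overlap, though iNKT2 missed the threshold. The intergenic region chr17:26494120-26494425, 14.1 kb downstream, held 3.05 and 2.65 CPM in BALB/c iNKT1 and 0.193 and 0.321 CPM in SKG iNKT1 (log2 change -3.45, SE 0.69, adjusted p = 0.0076), with 3 and 5 insertions in the SKG libraries. Both iNKT1 calls were lost without any of the iNKT1 libraries, the first also without BALB/c iNKT2 replicate 2 and the second also without BALB/c iNKT2 replicate 3 (adjusted p up to 0.12). Both were also lost with library totals, quantile normalization, TMM factors from start regions or the floor subtracted, and the second in limma with voom.

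In iNKT2 the region chr17:26502694-26503803, intergenic and 4.72 kb downstream of the Dusp1 start, was higher in SKG. It held 39.6, 40.6 and 40.6 CPM in BALB/c iNKT2 and 75.9, 54.0 and 69.9 CPM in SKG iNKT2 (log2 change 0.73, SE 0.15, adjusted p = 0.0028). It passed under 12 of 19 alternatives. It was lost without BALB/c iNKT2 replicates 2 or 3 or SKG iNKT2 replicate 3, and with library totals, quantile normalization, TMM factors from start regions or the floor subtracted (adjusted p up to 0.042). The start region chr17:26506887-26509819, which covers coding sequence, held 107, 74.5 and 82.0 CPM in BALB/c iNKT2 and 151, 104.5 and 110.4 CPM in SKG iNKT2, which overlap (log2 change 0.48, SE 0.15, adjusted p = 0.032, and 0.0085 with the replicate block). Without BALB/c iNKT2 replicate 1 it passed the threshold at 0.64. Over 19 alternatives its change ran from 0.22 to 0.64, with an adjusted p up to 0.41. The median of all start regions in the reported fit was 0.26. In iNKT1 the Dusp1 start region held 203 and 218 CPM in BALB/c and 153 and 166 CPM in SKG (log2 change -0.40, adjusted p = 0.29).

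Dusp2, a nuclear phosphatase of activated lymphocytes, had its genotype changes in iNKT1 just upstream of the start. The region chr2:127333755-127334667, intergenic and 1.49 kb upstream, held 33.2 and 33.2 CPM in BALB/c iNKT1 and 15.7 and 15.6 CPM in SKG iNKT1 (log2 change -1.08, SE 0.18, adjusted p = 0.0024). The replicates of each group were nearly equal and the groups stood 2.12-fold apart, although the call was lost when any 1 of these 4 libraries was left out (adjusted p up to 0.045). The neighbouring chr2:127335022-127335677, 0.482 kb upstream and chosen after its values were seen, held 30.3 and 27.1 CPM in BALB/c iNKT1 and 15.3 and 13.8 CPM in SKG iNKT1 (log2 change -0.98, SE 0.20, adjusted p = 0.0097). It was lost without any library other than BALB/c iNKT2 replicate 1 or SKG iNKT2 replicate 1 (adjusted p up to 0.14), and under every scaling but DESeq2.

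The Dusp2 start region chr2:127335776-127336612, which covers coding sequence, held 114 and 107 CPM in BALB/c iNKT1 and 116 and 114 CPM in SKG iNKT1 (log2 change 0.06, adjusted p = 0.91). In iNKT2 it held 56.3, 42.0 and 42.6 CPM in BALB/c and 64.2, 52.8 and 56.7 CPM in SKG, which overlap (log2 change 0.30, adjusted p = 0.1). The smallest p in iNKT2 was that of chr2:127300743-127301267, 34.9 kb upstream and nearest to the start of Stard7, with 7.09, 5.77 and 5.44 CPM in BALB/c and 3.48, 2.76 and 4.25 CPM in SKG (log2 change -0.82, SE 0.21, adjusted p = 0.0088). The groups did not overlap, but the call was lost on leaving out any library other than SKG iNKT2 replicate 3 (adjusted p 0.011 to 0.051 for those), with quantile normalization, with the floor subtracted and when only its groups were compared.

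Dusp4, the third inducible nuclear phosphatase, had estimates above 0 in SKG iNKT2 at all 4 regions over its body, with a median of 0.57. Estimates above 0 were common, with quartiles of -0.52 and 0.31 over all regions and 0.12 and 0.38 over protein-coding starts. The region chr8:34807746-34808710, 0.449 kb downstream of the start and over coding sequence, held 17.3, 21.3 and 21.7 CPM in BALB/c iNKT2 and 28.3, 29.4 and 39.1 CPM in SKG iNKT2 (log2 change 0.68, SE 0.15, adjusted p = 0.0035). It passed under 14 of 19 alternatives and was lost without BALB/c iNKT2 replicate 2 or SKG iNKT2 replicate 3, and with quantile normalization, TMM factors from start regions or the floor subtracted (adjusted p up to 0.037). The start region chr8:34806390-34807649, over a UTR exon and the most accessible of the locus, held 43.0, 51.4 and 56.3 CPM in BALB/c iNKT2 and 57.7, 76.0 and 80.4 CPM in SKG iNKT2 (log2 change 0.51, SE 0.14, adjusted p = 0.014, and 0.0013 with the replicate block). The groups of both regions stood apart, and the second change also passed without SKG iNKT2 replicate 1. Over 19 alternatives the second change ran from 0.20 to 0.64, with an adjusted p up to 0.11. The median of all start regions in the reported fit was 0.26. In iNKT1 the smallest p at Dusp4 was that of chr8:34798057-34798397, 8.90 kb upstream, with a log2 change of -1.12 (SE 0.59, adjusted p = 0.36).

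Dusp10 had 2 higher regions in SKG iNKT2, side by side in an intron about 32 kb from the start. The region chr1:184066573-184067289 held 5.36, 3.12 and 3.75 CPM in BALB/c iNKT2 and 9.21, 6.57 and 9.10 CPM in SKG iNKT2 (log2 change 1.02, SE 0.21, adjusted p = 0.0022). The region chr1:184066119-184066510, chosen after its values were seen, held 1.22, 2.38 and 2.23 CPM in BALB/c and 5.11, 4.13 and 5.73 CPM in SKG (log2 change 1.35, SE 0.34, adjusted p = 0.009). Neither pair of groups overlapped. The first call was lost without BALB/c iNKT2 replicates 2 or 3 or SKG iNKT2 replicate 3, and the second without either BALB/c iNKT1 library or any iNKT2 library (adjusted p up to 0.035). Both were also lost with library totals or TMM factors from start regions, and the second with the filter on low regions or the floor subtracted, so that they passed under 14 and 7 of 19 alternatives.

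The Dusp10 start region, chr1:184033257-184034489, is shared with 1700056E22Rik and held 129, 157 and 185 CPM in BALB/c iNKT2 and 155, 214 and 209 CPM in SKG iNKT2, which overlap (log2 change 0.29, adjusted p = 0.15). In iNKT1 the smallest p was that of chr1:184013088-184013503, 20.9 kb upstream over a UTR exon of a longer annotated Dusp10 transcript, with 9.62 and 9.39 CPM in BALB/c and 2.31 and 1.54 CPM in SKG (log2 change -2.30, SE 0.50, adjusted p = 0.014, and 0.0012 with a replicate block). The groups stood apart, and the change passed the threshold without BALB/c iNKT2 replicates 1 or 2 or SKG iNKT2 replicate 1. It missed the threshold under 6 of the 9 alternatives other than leaving out a library, and the iNKT1 numbers did not pair the libraries.

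Whether the genotype change differed between the subsets was tested as an interaction, the change in iNKT2 minus the change in iNKT1. At an adjusted p under 0.01, 4 of the 121 regions were positive (3.31%, against 0.446% of all regions) and 0 were negative (0.479% of all). Both larger values lay in the Dusp5 intron, at 10.2 kb (2.03, SE 0.36, adjusted p = 0.0069) and at 7.51 kb (1.74, SE 0.28, adjusted p = 0.0039). There the iNKT1 libraries held 7.62 and 12.6 CPM in BALB/c and 7.52 and 7.44 CPM in SKG at the first, and 17.5 and 21.7 CPM in BALB/c and 14.1 and 15.01 CPM in SKG at the second, so that SKG iNKT2 overlapped the iNKT1 libraries at both. The Dusp1 region 4.72 kb downstream had 1.32 (SE 0.24, adjusted p = 0.0084), with 53.3 and 79.3 CPM in BALB/c iNKT1 and 41.3 and 46.6 CPM in SKG iNKT1. The Dusp2 region 1.49 kb upstream had 1.25 (SE 0.23, adjusted p = 0.0089), with 17.3, 19.5 and 16.0 CPM in BALB/c iNKT2 and 23.0, 15.8 and 20.2 CPM in SKG iNKT2. The count of 4 became 0 when any iNKT1 library or replicate 3 of BALB/c iNKT2 was left out, and 1 when replicate 2 of that group or SKG iNKT2 replicate 3 was. It was also 0 with TMM factors from start regions or the floor subtracted, and 1 with library totals, voom, quantile normalization or the filter on low regions.

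Family members were compared with each other by the log2 ratio of their locus sums in each library, in an exact two-sided permutation test of genotype within each subset. With 120 arrangements the smallest possible p is 0.01667. Of 15 pairs, 0 passed an adjusted p of 0.05, which fewer than 6 pairs at that smallest p could not have reached. The smallest p, 0.01667 (adjusted 0.125), was that of Dusp2 against Dusp5, whose ratio was lower in SKG by a log2 difference of -0.38 in iNKT2 and -0.37 in iNKT1, and that of Dusp6 against Dusp10, with -0.25 and -0.17. The ratio of Dusp1 to Dusp10 differed by 0.17 in iNKT2 and by -0.66 in iNKT1 (exact permutation p = 0.3).

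The subsets differed at many more of these regions than the genotypes did. In BALB/c, 22 regions were higher in iNKT2 (18.2%, against 25.7% of all) and 53 were lower (43.8%, against 23.4% of all) at an adjusted p under 0.01. At 4-fold, 8 were higher (6.61%, against 15.5% of all) and 12 were lower (9.92%, against 6.36% of all). In SKG, 25 were higher and 25 lower (20.7% each, against 18.4% and 17.6% of all), and at 4-fold 11 were higher (9.09%, against 10.2% of all) and 5 lower (4.13%, against 6.96% of all). The BALB/c counts at an adjusted p under 0.01 were 26 and 34 with library totals and 28 and 30 with TMM factors from start regions, and 13 and 30 without BALB/c iNKT1 replicate 1. Without BALB/c iNKT1 replicate 2 there were 13 higher. The SKG counts were 28 and 16 with library totals, 7 higher without SKG iNKT1 replicate 1 and 16 lower without SKG iNKT1 replicate 2. At 4-fold the 11 higher regions of SKG became 4 without SKG iNKT1 replicate 1 and 6 without SKG iNKT2 replicate 1, and the 5 lower became 8 without the latter. The BALB/c and SKG comparisons share no library, though they share the estimate of the spread.

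Dusp2 had the largest share of regions lower in iNKT2 of the 6 loci, in both genotypes. In BALB/c, 22 of its 28 regions (78.6%) were lower in iNKT2 and 1 was higher, and in SKG 11 were lower and 1 higher. Its smallest p in BALB/c was that of the intergenic region chr2:127318138-127318822, 17.3 kb upstream, with 46.6 and 39.5 CPM in BALB/c iNKT1, 33.4 and 35.7 in SKG iNKT1, 19.8, 14.97 and 14.2 in BALB/c iNKT2, and 16.7, 13.2 and 15.2 in SKG iNKT2. Both iNKT1 groups stood above both iNKT2 groups, with log2 changes of -1.40 in BALB/c (SE 0.16, adjusted p = 2.8e-06) and -1.20 in SKG (SE 0.17, adjusted p = 2.3e-05). The start region followed the same order (log2 changes of -1.23 and -0.99). As a sum, the locus was lower in iNKT2 by -1.41 in BALB/c (adjusted p = 1.3e-04) and -1.09 in SKG (adjusted p = 0.0014), where 40.7% and 20.2% of all loci were lower and 13.3% and 8.48% higher.

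Dusp1 followed in BALB/c, where 7 of its 10 regions (70.0%) were lower in iNKT2 and 0 higher, and its locus sum was lower by -1.23 (SE 0.17, adjusted p = 1.4e-04). In SKG 1 region was lower and 2 were higher, and the locus sum did not pass (-0.17, adjusted p = 0.46). The start region, which had the smallest p in BALB/c, showed -1.26 in BALB/c (SE 0.17, adjusted p = 1.2e-05) and -0.38 in SKG (SE 0.17, adjusted p = 0.074). The difference between those subset changes is the interaction, which for the start region was 0.88 (adjusted p = 0.054).

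The ERK-specific members were mixed. At Dusp5, 14 regions were lower and 5 higher in BALB/c iNKT2, 7 of the 10 regions over the body were lower, and the locus sum was lower by -0.57 (SE 0.09, adjusted p = 2.3e-04). The strongest, the intronic region at 9.60 kb, held 8.48 and 12.0 CPM in BALB/c iNKT1 and 12.4 and 11.03 in SKG iNKT1, above all the iNKT2 libraries given earlier (log2 change -2.76 in BALB/c, SE 0.25, adjusted p = 2.7e-07, and -1.68 in SKG, adjusted p = 3.4e-05). At Dusp6, 6 regions were lower and 5 higher in BALB/c. Its strongest region, chr10:99268828-99269158, intergenic and 5.597 kb downstream of the start, held 30.3 and 29.0 CPM in BALB/c iNKT1 and 24.5 and 26.4 in SKG iNKT1, against 6.84, 6.96 and 6.89 in BALB/c iNKT2 and 4.34, 6.93 and 4.72 in SKG iNKT2. It was 4.30-fold lower in iNKT2 in BALB/c (log2 change -2.10, SE 0.18, adjusted p = 1.5e-07) and 4.78-fold lower in SKG (log2 change -2.26, SE 0.19, adjusted p = 1.6e-07), with no change by genotype past the threshold.

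In BALB/c, Dusp10 and Dusp4 were the loci with more regions higher than lower in iNKT2. Their shares higher were 29.6% and 33.3%, against 25.7% of all regions, and their shares lower 14.8% and 0%, against 23.4%. As sums, neither locus was higher in BALB/c iNKT2, at -0.10 for Dusp10 (adjusted p = 0.29) and -0.22 for Dusp4 (adjusted p = 0.18). At Dusp10, 8 regions were higher and 4 lower in BALB/c, and 13 of 27 (48.1%, against 18.4% of all) were higher and 1 lower in SKG. The intronic region chr1:184052379-184052697, 18.0 kb into the gene, held 0.478 and 0.441 CPM in BALB/c iNKT1 and 0.514 and 0.193 in SKG iNKT1, against 4.80, 6.53 and 6.76 in BALB/c iNKT2 and 9.004, 8.68 and 8.16 in SKG iNKT2. It was 12.9-fold higher in iNKT2 in BALB/c (log2 change 3.69, SE 0.31, adjusted p = 1.3e-07) and 24.1-fold higher in SKG (log2 change 4.59, SE 0.35, adjusted p = 8.7e-08), and the BALB/c call held under all 18 alternatives. At Dusp4, 3 of 9 regions were higher and 0 lower in either genotype, led by chr8:34797614-34797913, 9.38 kb upstream, with 0.149 and 0.220 CPM in BALB/c iNKT1 and 1.51, 1.96 and 1.57 in BALB/c iNKT2 (log2 change 3.19, SE 0.59, adjusted p = 2.3e-04). The iNKT1 libraries of that region held 0 to 6 insertions each.

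**Figure D5:**
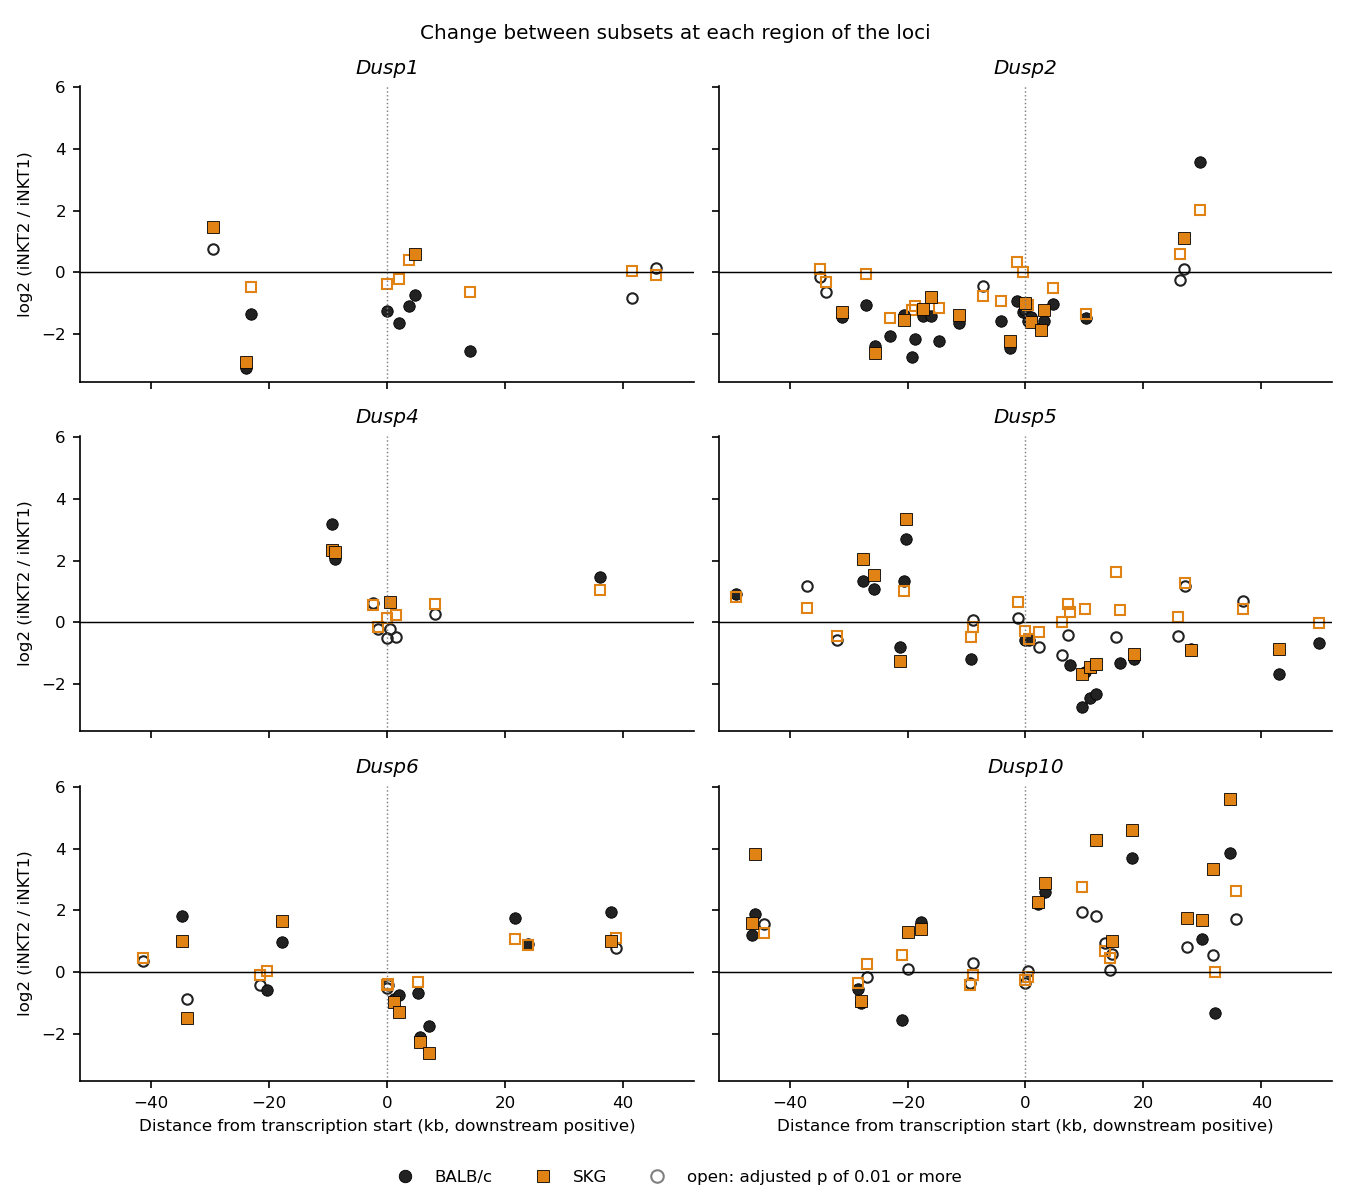
Log2 change of iNKT2 over iNKT1 (y axis) of each member region against the distance from the transcription start in kb (x axis, downstream positive), 1 panel per gene, with circles for BALB/c, squares for SKG and filled symbols for an adjusted p under 0.01. Dusp2 lies mostly below 0, and Dusp10 and Dusp4 have filled symbols mostly above 0.

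Other genes with a like profile were sought over the 10 libraries, by the Pearson r of log2 locus sums among protein-coding genes with at least 5 regions lying more than 1 Mb away. The closest were Cish (0.983) and Pla2g6 (0.982) for Dusp1, Rsad1 and Lrrc71 (0.993 each) for Dusp2, Vinac1 (0.9705) and Ttl (0.969) for Dusp4, Nsmce1 (0.996) and Kdm8 (0.995) for Dusp5, and Fam185a (0.979) and Gbp3 (0.970) for Dusp6. For Dusp10 the closest were the neighbouring near-identical genes Ttc30a1 and Ttc30a2 (0.9765 each). Cish, an inhibitor of cytokine signalling, is itself a feedback gene, and no such role is stated here for the other genes of this list. Within the family, Dusp4 with Dusp10 (0.909) and Dusp1 with Dusp5 (0.905) were closest, while Dusp2 with Dusp4 gave -0.237. These values are highest of many genes and share libraries and groups, so they describe the profiles only.

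The remaining genes of the circuit were counted from lists. Among 17 other dual specificity phosphatases, the locus sum was higher in SKG iNKT2 at 1 (Ssh2, 0.64, adjusted p = 0.0049) and lower at 1 (Ssh1, -0.45, adjusted p = 0.0046), both of them cofilin phosphatases. Among 17 ERK cascade genes 2 were higher and 0 lower, the ERK kinases Map2k1 (0.47, adjusted p = 0.0023) and Map2k2 (0.35, adjusted p = 0.0032). Among 12 JNK and p38 cascade genes 3 were higher and 0 lower, the kinases Map2k3 (0.41), Map2k4 (0.34) and Mapkapk2 (0.31). Among 16 ERK-induced early genes 5 were higher and 0 lower, the transcription factor genes Fosl2 (0.64, adjusted p = 7.6e-04), Fos (0.44), Myc (0.41), Fosb (0.37) and Egr1 (0.24, adjusted p = 0.009). These counts stand beside 11.9% of all loci higher and 6.1% lower. The median change over all loci was 0.17, with an upper quartile of 0.29. The listed genes were not examined under the other scalings or alternatives. Among 12 other feedback inhibitors 1 was higher, Lrig1 (0.48, adjusted p = 0.0047), and 1 was lower, the Sprouty gene Spry2, with -1.65 in iNKT2 (SE 0.12, adjusted p = 2.2e-05) and -1.64 in iNKT1 (SE 0.14, adjusted p = 5.5e-04). In SKG iNKT1, Spry2 was the 1 locus of these 74 genes past the threshold.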

How the data were processed

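Chromatin accessibility was measured by ATAC-seq in 10 libraries. Per the labels and the study's methods, the authors mapped reads to mm10 with Bowtie 1.0, trimmed those left unmapped with Trim Galore and mapped them again, removed duplicates with Picard, called MACS2 summits per replicate on subnucleosomal fragments, merged them into 94823 regions without chrY and blacklisted regions, and counted insertions. The deposited table is described as normalized, yet it holds whole numbers with differing library totals (14988590 to 36342635), so its values were used as counts. Depth limits the precision of regions with few insertions. No column was left unmatched to a sample.

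Regions 300 to 7709 bases wide (median 343) were tested without a filter in edgeR 4.0.16 (R 4.3.3) with TMM factors and quasi-likelihood F tests. The fit had 1 mean per group over all 10 libraries, p-values were adjusted by Benjamini-Hochberg over all regions, and a call needed an adjusted p under 0.01 and at least 4-fold. Gene starts, bodies and features came from GENCODE M21 on GRCm38, with 1 transcript per gene for starts and bodies. Locus sums used the same model over 17994 genes. Pairs of loci were compared by exact permutation (Python 3.11.15). Alternatives were library totals, DESeq2 1.42.0, limma 3.58.1 with voom and with quantile normalization, a cut on low regions (mean insertions under the lower quartile, 36.2), only the groups compared, a replicate block, other windows (10 and 100 kb), the nearest start only, looser thresholds (0.05 and 2-fold), and each library left out. TMM factors from start regions and subtraction of a floor were added after seeing the data. Where a group kept 1 library, it was assumed to vary like the others. The scripts were tested on simulated data.

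The regions named were each gene's start, its most accessible region, those of smallest p in each genotype comparison and in the subset comparison of BALB/c, and all calls between genotypes. Others are marked as chosen after their values were seen. The split of regions into gene body and flank was not planned. The genes and lists were chosen with earlier results of these data known. Motifs were sought in the central 300 bases of every region instead of in whole regions by width.

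Deviations of same-numbered libraries correlated at 0.455, 0.1425 and 0.166 in iNKT2, so those numbers were taken as pairs, although different numbers reached 0.224. The replicate block also tied the iNKT1 libraries, and the subsets to each other, by number. In iNKT1 the correlation was -0.00219, with 2 pairs.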

Additional observations from a re-analysis of the deposited data

Results flagged for a closer look

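At 4 regions the genotype change differed between the subsets in the test of the difference itself (edgeR's quasi-likelihood test, Benjamini-Hochberg adjusted p under 0.01). The difference, as the log2 change in iNKT2 minus that in iNKT1, was 2.03 (adjusted p = 0.0069) at the Dusp5 intronic region 10.2 kb downstream of the start and 1.74 (adjusted p = 0.0039) at the Dusp5 intronic region at 7.51 kb. It was 1.32 (adjusted p = 0.0084) at the Dusp1 region 4.72 kb downstream and 1.25 (adjusted p = 0.0089) at the Dusp2 region 1.49 kb upstream. At all 4 the log2 change was above 0 in iNKT2 and below 0 in iNKT1. None of the 4 passed on leaving out any iNKT1 library (adjusted p up to 0.075 over all alternatives). The summed level of iNKT17 genes and the floor also differed between the iNKT2 groups. With the floor subtracted, or with TMM factors from start regions, 0 of the 4 passed, and the part of the iNKT17 genes was not tested. Groups of 2 or 3 libraries are too small for the test of single outlying samples.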

How the results depend on the processing

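Of 344 counts under alternatives for 16 results, 254 stayed within 1.5 times the reported count, and 90 did not. With an adjusted p under 0.05 and 2-fold, SKG iNKT2 had 10 higher and 10 lower regions, SKG iNKT1 1 higher and 11 lower, BALB/c iNKT2 over iNKT1 23 higher and 41 lower, and SKG iNKT2 over iNKT1 27 higher and 24 lower. With 0.05 alone, SKG iNKT2 had 21 higher and 14 lower, SKG iNKT1 13 lower, and the interaction 9. The windows of 10 and 100 kb held 61 and 182 regions, against 121, so their counts are not on the same base. Within 10 kb, SKG iNKT2 had 0 past 4-fold and 1 lower at 0.01, SKG iNKT1 had 0 past 4-fold, 2 lower and 0 higher, and the subset comparisons had 5 (BALB/c) and 3 (SKG) lower past 4-fold. Within 100 kb, SKG iNKT1 had 2 higher, and the subset comparisons had 14 (BALB/c) and 18 (SKG) higher and 8 (SKG) lower past 4-fold. Shares over all regions at the looser thresholds are not given.

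By scaling, the higher regions of SKG iNKT2 were 5 (library totals), 3 (TMM factors from starts) and 6 (floor subtracted), with 4 (quantile voom) and 1 (floor) past 4-fold. The lower regions of SKG iNKT1 were 3 (library totals) and 2 each with voom, quantile voom, TMM factors from starts and the floor, and 23 when only its groups were compared. In that last fit the regions past 0.01 in either direction, over the whole table, rose from 1972 to 6851. Past 4-fold they were 1 with library totals, voom, TMM factors from starts or the floor, 0 with quantile voom, and 5 with DESeq2 or only its groups. Quantile voom left 0 higher. BALB/c iNKT2 over iNKT1 had 7 lower (TMM factors from starts) and 1 higher (quantile voom) past 4-fold. The higher regions of SKG iNKT2 over iNKT1 past 4-fold were 6 (voom), 3 (quantile voom), 7 (filter) and 7 (floor). The interaction gave 1 (library totals, voom, quantile voom or filter), 7 (DESeq2) and 0 (TMM factors from starts or floor). Locus sums passed at 3 with DESeq2.

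With the replicate block, fitted over the numbers of all 4 groups, 3 locus sums passed and SKG iNKT1 had 6 lower regions past 4-fold. The start regions of Dusp1 and Dusp4 in iNKT2, the Dusp5 region at 37.0 kb and the Dusp10 region at 20.9 kb in iNKT1 also passed, as given above.

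Leaving out each library gave ranges of 4 to 11 higher and 5 to 12 lower in SKG iNKT2, 0 to 1 higher and 0 to 12 lower in SKG iNKT1 (0 to 5 past 4-fold), 0 to 6 for the interaction, 4 to 15 higher and 4 to 8 lower past 4-fold for the subsets in SKG, and 0 to 2 locus sums.

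Of 1065 values for 58 single results, 812 kept their direction and side of the threshold, 218 lost and 23 gained significance, and 12 reversed. The Dusp6 sum in iNKT2 was -0.11 with library totals, -0.14 with TMM factors of the sums, -0.23 with those of starts and -0.0985 with the floor, and it ran from -0.0649 to 0.18 as each library was left out, below 0 when BALB/c iNKT2 replicate 1 or replicates 2 or 3 of SKG iNKT2 were. So treated, the Dusp2 sum in iNKT2 ran from -0.26 to 0.14, above 0 without replicate 1 of BALB/c or replicate 2 of SKG. In iNKT1 the Dusp5 sum ran from -0.0713 to 0.0246, above 0 without SKG replicate 1, and the Dusp10 sum -0.12 with the nearest start only. The Dusp6 start region in iNKT2 was -0.0305 with quantile voom. The cause was not tested for these changes. Levels under 1 CPM rest on few insertions, which limits those regions.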
